A study of Mus musculus with 12 samples.

Results

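The genes described here code for the route by which a heart cell takes up glucose, splits it to pyruvate and burns the pyruvate in the mitochondrion. They are 36 named genes, listed by function: 2 glucose transporters, 16 genes of glycolysis, 2 of lactate dehydrogenase, 4 of the pyruvate dehydrogenase complex and 12 of the tricarboxylic acid (TCA) cycle. All 36 were measured, among 25321 genes tested, each through its brightest probe. RNA from a left ventricular section of C57/Bl6 hearts was hybridised in a single colour to 12 Agilent arrays. The 4 groups held 3 arrays each: CnAb1 transgenic mice, which overexpress that splice form of calcineurin, after trans aortic banding (TAC), the same kind of transgenic mice after sham surgery, wild-type mice after TAC and wild-type mice after sham surgery. All hearts were taken on day 21 after surgery by the protocol, although a separate time label gives 0 for both sham groups. TAC places a band around the aorta, so that the left ventricle pumps against a raised pressure. The promoter that drives the transgene, the number of transgenic lines and whether each array came from its own animal are not given in the sources used here, so p-values measure the spread between arrays.

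Glucose enters the heart cell through the transporters GLUT1 and GLUT4. Glycolysis turns it to pyruvate in the cytosol, lactate dehydrogenase interconverts pyruvate and lactate, and the pyruvate dehydrogenase complex carries pyruvate carbon into the mitochondrion's TCA cycle as acetyl-CoA. The adult heart draws most of its energy from fatty acids, and a pressure-loaded heart is known for relying more on glucose. Many of the steps have alternative genes, some used mainly by adult muscle and others by most tissues.

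Levels are log2 processed signals minus the array's 75th percentile, so 0 is the brightness of the probe at that percentile, and a difference of 1 is a 2-fold change. Before this scaling the percentile itself was 9.48 to 9.85 (log2) on transgenic TAC and 9.49 to 9.51 on transgenic sham arrays, and 9.88 to 9.95 on wild-type TAC, against 8.98 to 9.24 on wild-type sham arrays. That step between the wild-type groups is as large as most differences below, so every rise or fall is relative to the percentile. Added control RNAs, the spike-ins, lay at 13.46 to 13.73 on transgenic TAC arrays, 13.43 to 13.84 on transgenic sham, 13.52 to 13.95 on wild-type TAC and 13.52 to 13.75 on wild-type sham, and scaling to them instead removed most of the falls, as described further on. Transgenic sham array 2 stood apart: 14672 probes (37.2%) were well above background there, against 23760 to 30830 (60.3% to 78.2%) on the other 11. Of the 36 members, 35 were well above background on all 12 arrays, and Aldoc, an aldolase gene known mainly from brain, on 11. In bulk tissue fewer cells of a type and less RNA per cell cannot be told apart. Ppp3cb, the gene from which the variant is spliced, read 1.47, 1.38 and 1.43 on transgenic TAC arrays and 1.39, 1.20 and 1.36 on transgenic sham, against 1.30, 1.21 and 1.33 on wild-type TAC and 1.63, 1.55 and 1.57 on wild-type sham. The transgenic arrays lay above the wild-type ones after TAC and below them after sham, neither past the test (differences 0.15 ± 0.09 and -0.27 ± 0.09, adjusted p = 0.395 and 0.184), and with spike-in scaling the sham difference was 0.12. Whether the probe matches the variant or the transgene was not analysed here, so it does not check the genotype labels.

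The first comparison asks what 21 days of pressure load did to these genes without the transgene. In wild-type hearts 23 of the 36 members fell after TAC, 1 rose and 12 did not pass. The threshold was an adjusted p of 0.05 in limma, corrected by Benjamini-Hochberg over the whole table. Over all genes tested, 12.6% fell and 8.86% rose. Among the 12316 genes well above background on every array, a closer match to these bright members, 20.5% fell and 11.1% rose. Brightness was not matched beyond that. The median difference was -0.48 for the members and -0.12 for all genes. The falls were unevenly spread over the route: 12 of 12 TCA cycle members, 4 of 4 pyruvate dehydrogenase members, 1 of 2 lactate dehydrogenase members, 5 of 16 glycolysis members and 1 of 2 transporters fell. The medians were -0.72 for the TCA cycle, -0.58 for lactate dehydrogenase, -0.47 for pyruvate dehydrogenase, -0.37 for uptake and -0.24 for glycolysis. The 3 TAC arrays lay wholly below the 3 sham arrays for 27 members and wholly above for 1, where 28.9% and 17.6% of all genes did so.

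**Figure D1:**
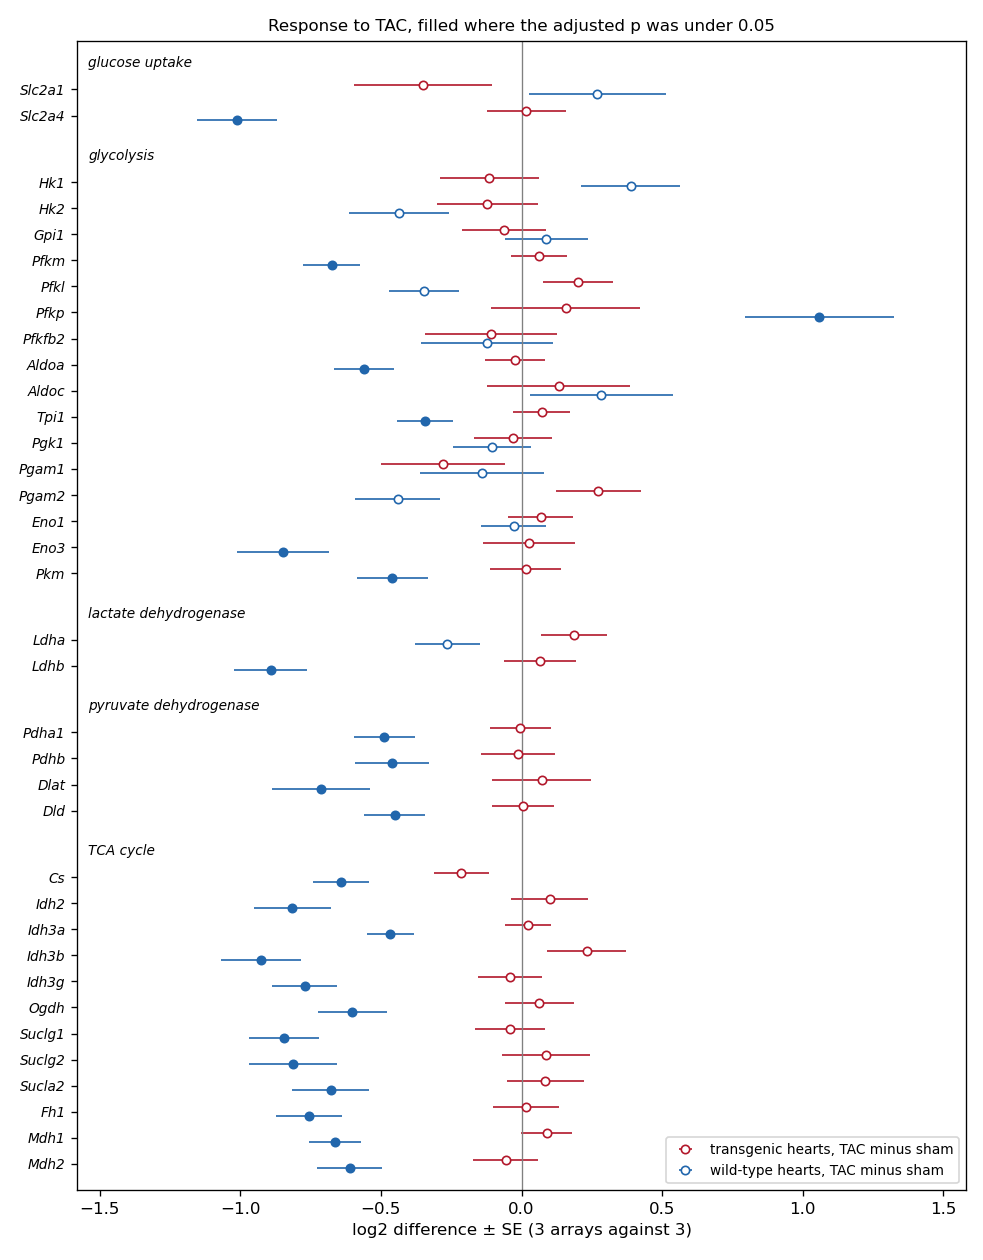
Log2 differences (horizontal axis) for each of the 36 members, grouped by role, for TAC minus sham in transgenic and in wild-type hearts (3 arrays against 3). Points are differences and bars are ± SE. Filled points passed the limma test at an adjusted p under 0.05. In wild-type hearts the TCA cycle points all lie left of 0, from -0.92 to -0.47, and in transgenic hearts no TAC point is filled.

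Among the transporters the muscle gene fell. Slc2a4, which codes for GLUT4, the transporter that insulin brings to the surface of muscle cells, read 5.41, 5.56 and 5.10 on wild-type TAC arrays and 6.29, 6.43 and 6.40 on wild-type sham arrays. Every TAC array was below every sham array, and the level was 2.02-fold lower (difference -1.01 ± 0.14, SE, adjusted p = 0.00221 by limma). Slc2a1, which codes for GLUT1, the transporter of most tissues, read 1.38, 1.17 and 1.99 after TAC and 1.24, 1.36 and 1.13 after sham. The groups overlapped and the difference of 0.27 ± 0.24 did not pass (adjusted p = 0.498).

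In glycolysis 3 of the 5 genes that fell are the muscle forms of their step, Pfkm, Aldoa and Eno3, while the muscle forms Hk2 and Pgam2 did not pass. Phosphofructokinase commits sugar to glycolysis, and its muscle gene Pfkm read 6.0, 5.84 and 5.89 on wild-type TAC arrays against 6.58, 6.51 and 6.66 on wild-type sham arrays (difference -0.68 ± 0.10, adjusted p = 0.00269). Its platelet-type gene Pfkp was the 1 member that rose: 1.80, 1.83 and 2.26 after TAC against 0.89, 1.02 and 0.80 after sham, 2.08-fold higher (difference 1.06 ± 0.27, adjusted p = 0.0202). Pfkm and Pfkp both separated the groups completely, in opposite directions. The liver-type gene Pfkl, at 1.90, 1.78 and 1.98 against 2.23, 2.24 and 2.24, also separated them but did not pass (difference -0.35 ± 0.12, adjusted p = 0.0765). Eno3, the muscle enolase of the next-to-last step, read 7.32, 7.26 and 6.96 after TAC against 7.91, 8.10 and 8.07 after sham (difference -0.85 ± 0.16, adjusted p = 0.00673). Eno1, the enolase of most tissues, read 4.89, 4.73 and 4.74 against 4.85, 4.72 and 4.87, with overlapping groups and a difference of -0.03 ± 0.12 (95% interval -0.29 to 0.23). So within a single step the muscle gene passed and the widespread gene did not.

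The other glycolysis members that fell were Aldoa, the muscle aldolase, Pkm, pyruvate kinase of the final step, and Tpi1, triose phosphate isomerase. Aldoa read 8.81, 8.62 and 8.82 on wild-type TAC arrays against 9.24, 9.32 and 9.36 on wild-type sham arrays (difference -0.56 ± 0.11, adjusted p = 0.00637). Pkm and Tpi1 differed by -0.46 ± 0.13 and -0.34 ± 0.10 (adjusted p = 0.0295 and 0.0361). Aldoa and Tpi1 were above 0 under quantile normalization, at 0.07 and 0.05, with adjusted p of 0.680 and 0.768. Hexokinase, which traps glucose in the cell, has a widespread gene and a muscle gene. The widespread Hk1 read 5.12, 4.80 and 5.49 after TAC against 4.68, 4.84 and 4.73 after sham, and the muscle gene Hk2 read 3.61, 3.48 and 3.61 against 4.01, 4.36 and 3.64. Hk1 overlapped and Hk2 did not, and neither passed (differences 0.39 ± 0.18 and -0.44 ± 0.18, adjusted p = 0.152 and 0.116). Pgam2, the muscle phosphoglycerate mutase, was at -0.44 ± 0.15 (adjusted p = 0.0649), and its widespread partner Pgam1 at -0.14 ± 0.22. Gpi1 (glucose-6-phosphate isomerase), Pgk1 (phosphoglycerate kinase), Pfkfb2 (which makes an activator of phosphofructokinase, mainly in heart) and Aldoc had differences between -0.12 and 0.28, and their groups overlapped.

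Lactate dehydrogenase is built from an A chain and a B chain, the B chain being the main chain of the heart. Ldhb, for the B chain, read 7.16, 7.22 and 6.84 on wild-type TAC arrays against 7.93, 7.97 and 8.00 on wild-type sham arrays, 1.86-fold lower (difference -0.89 ± 0.13, adjusted p = 0.00242). Ldha, for the A chain, read 7.37, 7.20 and 7.46 against 7.56, 7.63 and 7.63 (difference -0.26 ± 0.12, adjusted p = 0.139). Both chains were lower on every TAC array, and only the B chain passed.

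Ldha and Pgk1 are textbook targets of HIF-1, the factor that cells use to answer low oxygen, whose binding core reads ACGTG. Their promoters are shown beside that of Idh3b, a TCA cycle gene with a large fall, as RefSeq gives them for GRCm38.p6 from 250 bases before to 50 after the gene's start, each 5′ to 3′ on the gene's strand, with capitals marking the core on either strand, joined where copies on the 2 strands overlap. The Ldha window is chr7:46845554-46845853 (plus strand), the Pgk1 window chrX:106186850-106187149 (plus strand) and the Idh3b window chr2:130284402-130284701 (minus strand).
Ldha: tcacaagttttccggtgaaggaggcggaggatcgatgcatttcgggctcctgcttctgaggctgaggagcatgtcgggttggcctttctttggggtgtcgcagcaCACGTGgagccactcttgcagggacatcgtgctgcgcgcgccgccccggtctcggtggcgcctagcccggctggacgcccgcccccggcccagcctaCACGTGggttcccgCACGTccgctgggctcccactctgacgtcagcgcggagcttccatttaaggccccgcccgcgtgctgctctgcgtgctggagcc
Pgk1: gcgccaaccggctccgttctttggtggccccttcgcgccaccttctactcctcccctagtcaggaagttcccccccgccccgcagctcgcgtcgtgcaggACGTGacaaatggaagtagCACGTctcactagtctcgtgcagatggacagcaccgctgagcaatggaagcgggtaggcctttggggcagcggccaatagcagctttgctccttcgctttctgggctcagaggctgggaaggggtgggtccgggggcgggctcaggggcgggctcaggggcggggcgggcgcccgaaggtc
Idh3b: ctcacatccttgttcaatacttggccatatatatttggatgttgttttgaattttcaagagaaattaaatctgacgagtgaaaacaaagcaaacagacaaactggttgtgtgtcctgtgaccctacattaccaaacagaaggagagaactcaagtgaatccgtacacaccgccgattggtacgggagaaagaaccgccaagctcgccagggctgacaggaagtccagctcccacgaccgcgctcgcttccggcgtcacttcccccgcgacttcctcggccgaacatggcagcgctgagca
RefSeq has another Ldha window, at chr7:46846832-46847131, which does not hold the core. The core occurs 5 times in the Ldha window shown, counting both strands, from -145 to -34 relative to the start, and at -150 and -131 in the Pgk1 window. It is not in the Idh3b window. Promoter windows were found for 34 of the 36 members, not for Slc2a4 and Idh3a. Of all 32851 RefSeq mouse windows of this length 19.6% hold the core, and of the members' 52 windows, 6 of them of Ogdh alone, 44.2% do. Base composition was not matched. By gene, 9 of 16 glycolysis members, 3 of 11 TCA cycle members and 1 of 4 pyruvate dehydrogenase members have it in at least 1 window, where 21.8% of all genes do. A gene with more windows has more chances to hold it. By window it is in 42.9% of 28 for glycolysis, 50% of 16 for the TCA cycle and 25% of 4 for pyruvate dehydrogenase. The E-box CACGTG, which contains the core and is bound by Myc, is in 11.5% of the members' windows and 7.15% of all. The full estrogen-related receptor element TCAAGGTCA, searched on both strands, is in 0 of the members' 52 windows and 0.423% of all. These are matches of letters, and binding was not measured.

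The pyruvate dehydrogenase complex joins glycolysis to the TCA cycle, and all 4 of its subunit genes among the members fell in wild-type hearts after TAC. Pdha1, the alpha chain of the decarboxylase (E1), read 4.53, 4.44 and 4.25 on wild-type TAC arrays against 4.91, 4.88 and 4.88 on wild-type sham arrays (difference -0.49 ± 0.11, adjusted p = 0.0122). Dlat, the acetyltransferase core (E2), read 3.52, 3.75 and 3.16 against 4.25, 4.21 and 4.12 (difference -0.71 ± 0.17, adjusted p = 0.0181). The groups did not overlap for either gene, nor for Pdhb and Dld. They did overlap for Pdhx, a subunit gene outside the members, at 2.25, 2.65 and 2.03 after TAC against 2.64, 2.76 and 2.80 after sham. Pdhb, the beta chain of E1, read 6.37, 6.63 and 6.28 after TAC against 6.82, 7.01 and 6.82 after sham (difference -0.46 ± 0.13, adjusted p = 0.0328). Dld, the dehydrogenase (E3) that other complexes share, read 3.96, 4.08 and 3.78 against 4.40, 4.41 and 4.36 (difference -0.45 ± 0.11, adjusted p = 0.0175).

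All 12 TCA cycle members fell in wild-type hearts after TAC, within a narrow band from -0.92 to -0.47. Idh3b, a chain of the NAD-dependent isocitrate dehydrogenase, read 6.01, 5.85 and 5.46 on wild-type TAC arrays against 6.70, 6.62 and 6.76 on wild-type sham arrays, 1.90-fold lower (difference -0.92 ± 0.14, adjusted p = 0.00295). Its partner chains Idh3g and Idh3a fell too, by 0.77 and 0.47 on the log2 scale (SE 0.11 and 0.08, adjusted p = 0.00265 and 0.00509). Mdh1, the malate dehydrogenase of the cytosol that also serves the malate-aspartate shuttle, read 6.55, 6.48 and 6.43 against 7.13, 7.16 and 7.16 (difference -0.66 ± 0.09, adjusted p = 0.00204). For Idh3b and Mdh1 alike, the 3 TAC arrays were below the 3 sham arrays, and the Idh3b TAC arrays were spread more widely.

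Succinyl-CoA synthetase, the cycle's step that makes a nucleotide triphosphate directly, fell in all 3 chains. Suclg1, the chain common to both forms, read 5.06, 5.25 and 4.78 on wild-type TAC arrays against 5.81, 5.91 and 5.90 on wild-type sham arrays (difference -0.84 ± 0.12, adjusted p = 0.00257). Suclg2 and Sucla2, which make the enzyme specific for GDP or ADP, were at -0.81 ± 0.16 and -0.68 ± 0.14 (adjusted p = 0.00687 and 0.00824). The remaining members were spread through the cycle: Idh2 (NADP-dependent isocitrate dehydrogenase, -0.81 ± 0.14), Fh1 (fumarase, -0.76 ± 0.12), Cs (citrate synthase, the entry step, -0.64 ± 0.10), Mdh2 (mitochondrial malate dehydrogenase, -0.61 ± 0.12) and Ogdh (2-oxoglutarate dehydrogenase, -0.60 ± 0.12), with adjusted p from 0.00289 to 0.00866. For every TCA cycle member the 3 TAC arrays were below the 3 sham arrays. Other probes, 11 in all, existed for 8 of the 36 members, and in this comparison each had the same sign as the one used.

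In a comparison of the TCA cycle with glycolysis within each array, any scaling by 1 constant per array cancels, such as the 75th percentile, the median or the spike-ins, but not quantile normalization or normexp. The TCA cycle median minus the glycolysis median, each set against its wild-type sham mean, was -0.26, -0.15 and -0.07 on transgenic TAC arrays (mean -0.16 ± 0.09, SD, n = 3) and -0.15, -0.13 and -0.31 on transgenic sham arrays (mean -0.20 ± 0.10). It was -0.33, -0.35 and -0.59 on wild-type TAC arrays (mean -0.42 ± 0.15) and -0.03, -0.01 and 0.02 on wild-type sham arrays (mean 0.00 ± 0.02). The wild-type TAC arrays were the lowest of all 12, the wild-type sham arrays the highest, and both transgenic groups lay between them and overlapped each other. In the wild-type comparison the TCA cycle median was 0.48 below the glycolysis median, and between 0.37 and 0.52 below it in 27 other settings of the analysis. Many of those settings could not move this gap, such as another constant per array, a transgenic array left out or the compared groups alone. The glycolysis list mixes muscle and widespread genes of a step. Its muscle genes Pfkm (-0.68), Aldoa (-0.56) and Eno3 (-0.85) lay within the TCA cycle's range of -0.92 to -0.47, while Hk2 and Pgam2 fell less. The part of this list make-up in the gap was not tested. For transgenic against wild type after sham the gap was -0.14, ran from -0.23 to 0.02 over 27 other settings and turned sign with slide as a fixed block. Here too many of the settings could not move the gap.

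**Figure D2:**
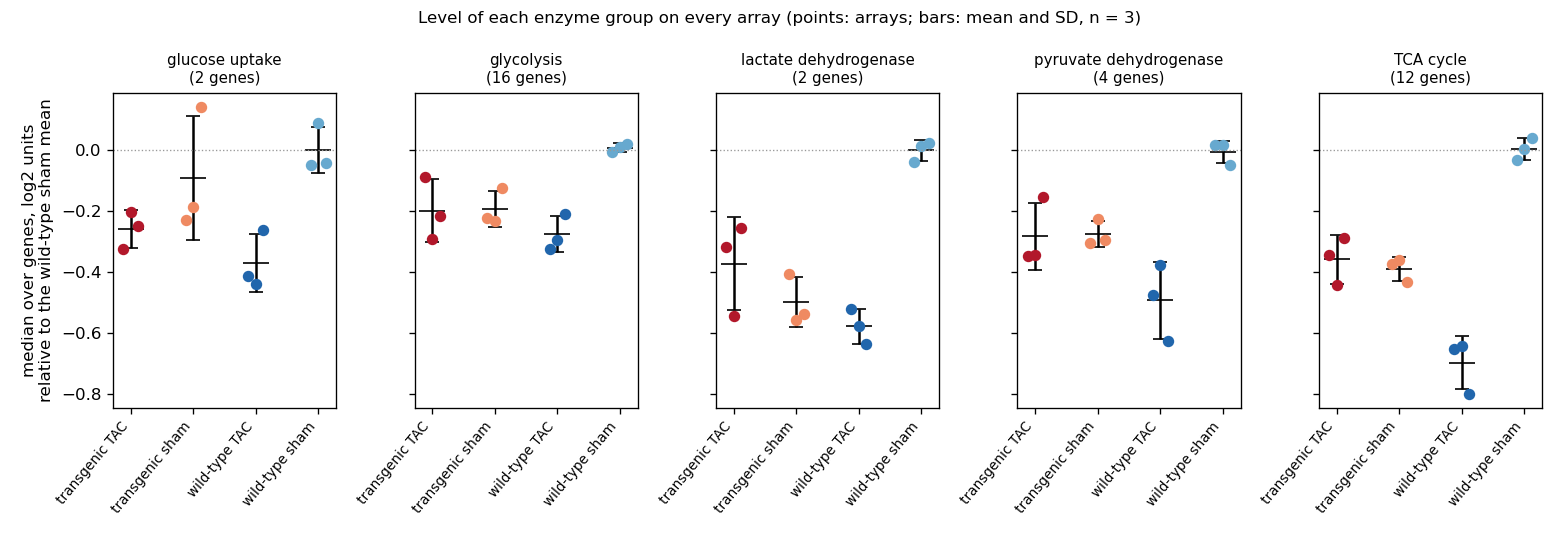
Median log2 level of the members of each role group on each array, relative to the wild-type sham mean (vertical axis). Points are arrays and bars are the group mean ± SD (n = 3). For the TCA cycle the means are -0.36 in transgenic TAC, -0.39 in transgenic sham, -0.70 in wild-type TAC and 0.00 in wild-type sham hearts.

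Ratios between alternative genes of a step are likewise free of a constant per array, and 9 such pairs were followed. In wild-type hearts 7 of the 9 ratios were higher on every TAC array than on every sham array. For 3 arrays against 3 an exact two-sided permutation test cannot give a p below 0.1, and these 7 gave that value. How often ratios of other gene pairs separate these arrays was not worked out. Pfkp over Pfkm and Pfkl over Pfkm share a gene, so the 7 are not separate shifts. Pfkp over Pfkm was 1.73 higher after TAC, Slc2a1 over Slc2a4 1.28 and Aldoc over Aldoa 0.84. Hk1 over Hk2 and Eno1 over Eno3 were each 0.82 higher, Ldha over Ldhb 0.63 and Pfkl over Pfkm 0.33. Quantile normalization brought Aldoc over Aldoa to 0.25, or to 0.06 after normexp, Pfkl over Pfkm to 0.07 and Eno1 over Eno3 to 0.53. Pgam1 over Pgam2 (0.30 higher, exact p = 0.4) and Sucla2 over Suclg2 (0.13 higher, exact p = 0.5) overlapped. In transgenic hearts 0 of the 9 ratios separated TAC from sham.

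The ratio shift was partly present in transgenic hearts without banding. Against wild-type sham, 5 of the 9 ratios were higher on every transgenic sham array: Hk1 over Hk2 by 1.11, Pfkp over Pfkm by 1.04, Slc2a1 over Slc2a4 by 0.78, Eno1 over Eno3 by 0.76 and Aldoc over Aldoa by 0.68. Ldha over Ldhb and Pfkl over Pfkm, which separated TAC from sham in wild-type hearts, overlapped between the sham groups (0.08 and 0.04 higher in transgenic sham). Ldha over Ldhb was -0.21, -0.11 and -0.16 on transgenic TAC and -0.18, -0.25 and -0.40 on transgenic sham arrays, and 0.20, -0.03 and 0.62 on wild-type TAC against -0.37, -0.34 and -0.37 on wild-type sham arrays. For this ratio the sham groups thus differed little. The wild-type TAC arrays were the 3 highest of the 12, and transgenic sham overlapped wild-type sham. After TAC, Ldha over Ldhb and Pfkp over Pfkm were lower in transgenic than in wild-type hearts, by 0.42 and 0.60, with no overlap.

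**Figure D3:**
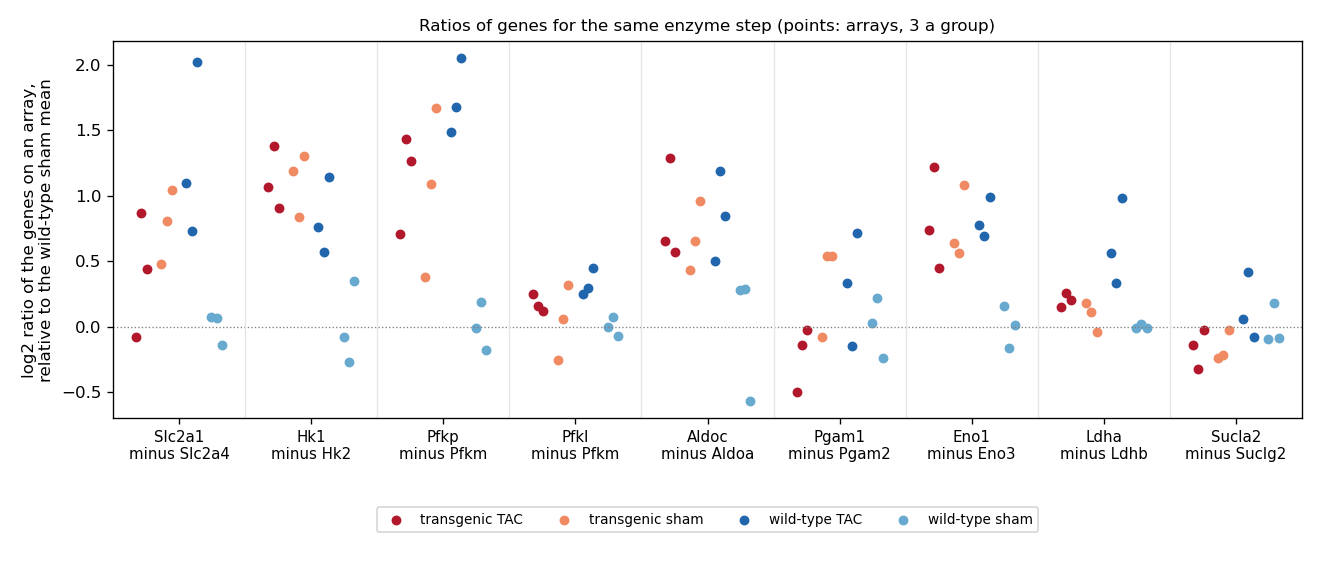
Within-array log2 ratio of 9 pairs of alternative genes, relative to the wild-type sham mean (vertical axis), by group. Points are arrays. The wild-type TAC arrays lie wholly above the wild-type sham arrays in 7 pairs, and the transgenic TAC and transgenic sham arrays overlap in all 9.

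The second comparison asks what the same banding did in transgenic hearts. No member passed, and neither did any gene: 0% of the 25321 genes were called by limma, with 1579 genes at an unadjusted p under 0.05. Member differences ran from -0.35 (Slc2a1) to 0.27 (Pgam2), with a median of 0.02 against -0.01 for all genes. Slc2a4 read 6.08, 5.74 and 5.90 on transgenic TAC arrays and 5.90, 5.78 and 5.99 on transgenic sham arrays, so that the groups overlapped. Its difference of 0.02 had a 95% interval of -0.30 to 0.33, which does not reach the wild-type difference of -1.01. For Idh3b the arrays read 6.48, 6.31 and 6.45 after TAC and 6.31, 6.10 and 6.13 after sham (95% interval -0.09 to 0.55), and for Ldhb 7.57, 7.29 and 7.61 against 7.47, 7.35 and 7.45 (-0.22 to 0.35). Cs had the smallest adjusted p of the members (0.794, difference -0.21 ± 0.10), with 7.46, 7.42 and 7.58 on transgenic TAC against 7.61, 7.69 and 7.80 on transgenic sham arrays. Cs and Pgam2 were the only members whose transgenic TAC and sham arrays did not overlap, Cs lower and Pgam2 higher, where 4.11% and 4.4% of all genes did so.

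After sham surgery most members had lower values in transgenic than in wild-type hearts, but only Idh2 passed, with 7.52, 7.10 and 7.13 on transgenic sham arrays against 7.92, 7.99 and 8.01 on wild-type sham arrays (difference -0.72 ± 0.14, adjusted p = 0.0386). All 3 transgenic arrays were below the wild-type ones. Over all genes 0.632% were called lower and 0.77% higher. The transgenic sham arrays lay wholly below the wild-type sham arrays for 24 of 36 members and wholly above for 1, Hk1, where 13.8% and 8.44% of all genes did so, and the member median was -0.33 against -0.04 for all genes. Mdh1 was at -0.42 ± 0.09 (adjusted p = 0.0562), Ldhb at -0.54 ± 0.13 (0.0752), Ldha at -0.46 ± 0.12 (0.0908) and Hk2 at -0.68 ± 0.18 (0.101). Within the cycle Idh3a differed least (-0.03), with 5.23, 5.30 and 5.27 on transgenic sham arrays and 5.28, 5.26 and 5.34 on wild-type sham arrays. These groups overlapped, as they did for Ogdh and Suclg2. Of the 36 members, 27 had a transgenic sham mean between the wild-type TAC and wild-type sham means. Both comparisons share the wild-type sham arrays, and how often other genes lie so was not worked out. The Idh2 call held in 9 of 27 other settings (adjusted p from 0.00836 to 0.467) and was lost without any 1 of 9 arrays: transgenic sham 2 or 3, any transgenic TAC array, any wild-type sham array or wild-type TAC 1.

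After TAC, 2 members were higher in transgenic than in wild-type hearts, both of them chains of the NAD-dependent isocitrate dehydrogenase, where 2.25% of all genes were called higher and 1.91% lower. Idh3a read 5.25, 5.30 and 5.31 on transgenic TAC arrays against 4.85, 4.86 and 4.77 on wild-type TAC arrays (difference 0.46 ± 0.08, adjusted p = 0.0225). Idh3b read 6.48, 6.31 and 6.45 against 6.01, 5.85 and 5.46 (difference 0.64 ± 0.14, adjusted p = 0.0398). The groups did not overlap in either gene. In all, 16 members were higher on every transgenic TAC array and 1, Hk2, lower, where 19.4% and 13.5% of all genes did so. Of the 16, 9 were TCA cycle members. Slc2a4 was at 0.55 ± 0.14 and Suclg2 at 0.60 ± 0.16, without passing (adjusted p = 0.0605 and 0.0630). The Idh3a call held in 14 of 27 other settings and the Idh3b call in 9 (adjusted p from 0.00356 to 0.597 and from 0.00976 to 0.493). Idh3a was lost without any transgenic TAC array or wild-type TAC 1 or 3, and Idh3b without any 1 array of the transgenic TAC, wild-type TAC or wild-type sham groups.

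The interaction tests whether the TAC response differed between the genotypes. It uses all 4 groups, so it shares arrays with each comparison above. For 13 of the 36 members the response was higher in transgenic hearts, and for 0 lower, where 4.22% of all genes were higher and 3.07% lower (7.27% and 4.14% of the genes well above background on every array). All 13 were among the 23 that fell in wild-type hearts. They comprised 10 of 12 TCA cycle members, Slc2a4, Ldhb and, of the 16 glycolysis members, Pfkm. The size was 1.16 ± 0.20 for Idh3b (adjusted p = 0.0184), 0.75 for Mdh1 (0.0181) and 1.03 for Slc2a4 (0.0237). No pyruvate dehydrogenase member passed, with values of 0.45 to 0.78 and adjusted p of 0.0821 to 0.164, and neither did Cs (0.43) or Mdh2 (0.55). Eno3 came close at 0.87 (adjusted p = 0.0503). The count of 13 was 0 without wild-type sham array 1 or 3, 1 without transgenic TAC array 1, 4 without wild-type sham array 2 or wild-type TAC array 3, 5 without transgenic TAC array 3 and 7 without transgenic sham array 2 or wild-type TAC array 1. Over all genes the 1847 calls of the interaction became 151 to 2338 without 1 array, the fewest without wild-type sham array 3.

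Neighbouring genes of the route, 79 measured of 82 listed, were read with the same fit in wild-type hearts after TAC. Beside the counts for these lists, 12.6% of all genes tested fell and 8.86% rose. Of 9 other TCA cycle genes 7 fell and 0 rose, among them Sdhc and Sdhb of succinate dehydrogenase (-0.92 ± 0.10 and -0.78 ± 0.10, adjusted p = 0.00089 and 0.00162) and Ogdhl, a relative of Ogdh (-1.08 ± 0.24, adjusted p = 0.0119). Of 8 transport genes 3 fell and 1 rose: Mpc1 and Mpc2, which form the mitochondrial pyruvate carrier, fell by 0.57 and 0.78 on the log2 scale (adjusted p = 0.00513 and 0.00693), Bsg, the partner protein of lactate transporters, by 0.91, and Slc16a3, the lactate exporter MCT4, was 1.14 ± 0.29 higher (adjusted p = 0.0219). Carrier and enzyme genes of the step into the mitochondrion thus had the same direction.

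Of 10 further subunits and regulators of pyruvate dehydrogenase, 3 fell and 0 rose. Pdk2, a kinase that switches the complex off, and Pdp2, a phosphatase that switches it on, both fell, at -0.96 and -1.49 (adjusted p = 0.0033 and 0.00366). Pdk4, the kinase induced by fasting and fatty acids, was at -0.53 ± 0.51 and did not pass (adjusted p = 0.522). Of 11 other glycolysis genes 3 fell and 0 rose. Gapdh, the dehydrogenase of the middle step and a common reference gene, was at -0.59 ± 0.11 (adjusted p = 0.00624) but at 0.04 under quantile normalization. Pfkfb1, a liver and muscle relative of Pfkfb2, read -1.34, -1.55 and -0.20 on transgenic TAC, -0.76, -2.15 and -1.43 on transgenic sham, -1.69, -1.12 and -2.89 on wild-type TAC and 1.06, 0.77 and 0.87 on wild-type sham arrays (wild-type difference -2.80 ± 0.51, adjusted p = 0.00552). The wild-type sham arrays stood above all 9 others.

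Side branches of the route were mixed, and several of their counts are near the shares of all genes (12.6% fell and 8.86% rose). Of 12 genes of anaplerosis and shuttles 6 fell and 1 rose, with Me3 (mitochondrial malic enzyme), Got2 (aspartate aminotransferase) and Slc25a11 (oxoglutarate carrier) at -0.76, -0.67 and -0.65. Of 10 glycogen genes 2 fell and 2 rose, and Pygm, muscle glycogen phosphorylase, was at -0.80 (adjusted p = 0.00358). Of 7 pentose phosphate genes 2 rose and 1 fell, the rises being G6pdx, the entry enzyme, at 0.53 and Tkt, transketolase, at 0.47 (adjusted p = 0.0234 and 0.024). Of 12 regulators 2 rose and 3 fell. Hif1a, the oxygen-regulated subunit of HIF-1, read 0.54, 0.82 and 0.60 on transgenic TAC, 0.69, 0.76 and 0.53 on transgenic sham, 1.15, 0.94 and 1.67 on wild-type TAC and 0.01, 0.05 and 0.12 on wild-type sham arrays. In that gene the wild-type TAC arrays were highest and the wild-type sham arrays lowest, with both transgenic groups between (wild-type difference 1.19 ± 0.17, adjusted p = 0.00253). Myc was at 1.91 ± 0.36 (adjusted p = 0.00599), Ppargc1a, a coactivator of mitochondrial genes, at -1.80 ± 0.37, Ppara, a receptor for fatty acids, at -1.32 ± 0.17 and Esrra, the estrogen-related receptor alpha, at -0.71 ± 0.14 (adjusted p from 0.00162 to 0.00841).

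None of these neighbours passed for TAC in transgenic hearts. In the interaction 6 of 9 other TCA cycle genes, 3 of 8 transport genes, 3 of 10 pyruvate dehydrogenase genes, 3 of 12 shuttle genes, 2 of 11 other glycolysis genes, 1 of 10 glycogen genes, 0 of 7 pentose phosphate genes and 1 of 12 regulators were higher, and only the regulators held lower ones, Hif1a (-1.20, adjusted p = 0.0265) and Myc (-1.93, adjusted p = 0.0489). Over all genes tested 4.22% were higher and 3.07% lower, so the lists with 1 higher gene are near that share. Ppara was the regulator with the higher response (1.11, adjusted p = 0.0296), and Ppargc1a did not pass (1.52 ± 0.52, adjusted p = 0.102). The stress markers of the myocyte had unlike layouts. Nppa, the atrial natriuretic peptide, read 6.40, 8.03 and 7.13 on transgenic TAC, 6.93, 6.78 and 6.71 on transgenic sham, 8.60, 8.32 and 8.54 on wild-type TAC and 5.39, 5.94 and 5.22 on wild-type sham arrays, so that wild-type TAC was highest. Myh7, the slow myosin heavy chain, read 7.98, 8.07 and 7.99 on transgenic TAC and 8.34, 8.12 and 8.31 on transgenic sham, and 8.40, 7.13 and 8.32 on wild-type TAC against 5.14, 3.91 and 4.58 on wild-type sham arrays, so that only wild-type sham stood apart.

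Markers of other cells moved with the wild-type comparison. The summed signal of 9 cardiomyocyte markers, in multiples of the 75th percentile, was 1620 to 1893 in transgenic TAC, 1734 to 1883 in transgenic sham, 1527 to 1692 in wild-type TAC and 2347 to 2415 in wild-type sham hearts. For TAC in wild-type hearts 5 of the 9 fell, with a median of -0.59, beside the -0.72 of the TCA cycle members. The 6 fibroblast markers summed to 118 to 140, 120 to 141, 209 to 252 and 76.6 to 124 in the same groups, and 5 of the 6 rose in wild-type hearts. In the same comparison 2 of 5 macrophage markers and 2 of 5 smooth muscle and pericyte markers rose and 0 fell, and of 6 endothelial markers 2 rose and 1 fell. Of all genes tested 8.86% rose and 12.6% fell there. Smooth muscle and pericyte markers summed to 39.2 to 55.7 in transgenic sham against 20.7 to 22.7 in wild-type sham hearts, with 0 of 5 past the test. Most of that sum was Acta2, smooth muscle actin, singled out after its values were seen, at 4.86, 5.44 and 5.56 on transgenic sham against 3.58, 3.62 and 3.72 on wild-type sham arrays (adjusted p = 0.0627). Summed atrial markers were 1.46 to 3.11 over all arrays, with Sln at background in both sham groups, and summed skeletal muscle markers were at most 0.26. The part of these shifts in the members' values was not tested.

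The direction of the falls depends on the scaling. With the spike-ins as the scale, a choice made after the data were seen, the median of all genes in wild-type hearts was 0.49 higher after TAC, and the members' median was 0.13, with 22 members above 0, 14 below, 4 called higher and 0 lower. This scale moves all genes of a comparison by the same amount, so the order of the roles is unchanged: the glycolysis median was 0.37, uptake 0.24, pyruvate dehydrogenase 0.14, lactate dehydrogenase 0.03 and the TCA cycle -0.11. Relative to the median of all genes, the TCA cycle median was -0.59 under the 75th percentile and between -1.10 and -0.28 in the 14 settings that kept all arrays. The glycolysis median was -0.12 on that footing and between -0.63 and 0.11. The TCA cycle median was thus below that of all genes in each of these settings, and the glycolysis median was not. Under quantile normalization the wild-type medians were 0.06 for glycolysis, -0.07 for lactate dehydrogenase, -0.19 for uptake, -0.26 for pyruvate dehydrogenase and -0.32 for the TCA cycle. With normexp background correction they were -0.38, -0.78, -0.53, -0.63 and -0.86 in the same order. On the spike-in scale the members' median was 0.15 for TAC in transgenic hearts, 0.06 for transgenic against wild type after sham and 0.11 after TAC, and 0.03 for the interaction, with 0 members called in each. The interaction's 13 calls were also 0 under quantile normalization and under normexp.

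**Figure D4:**
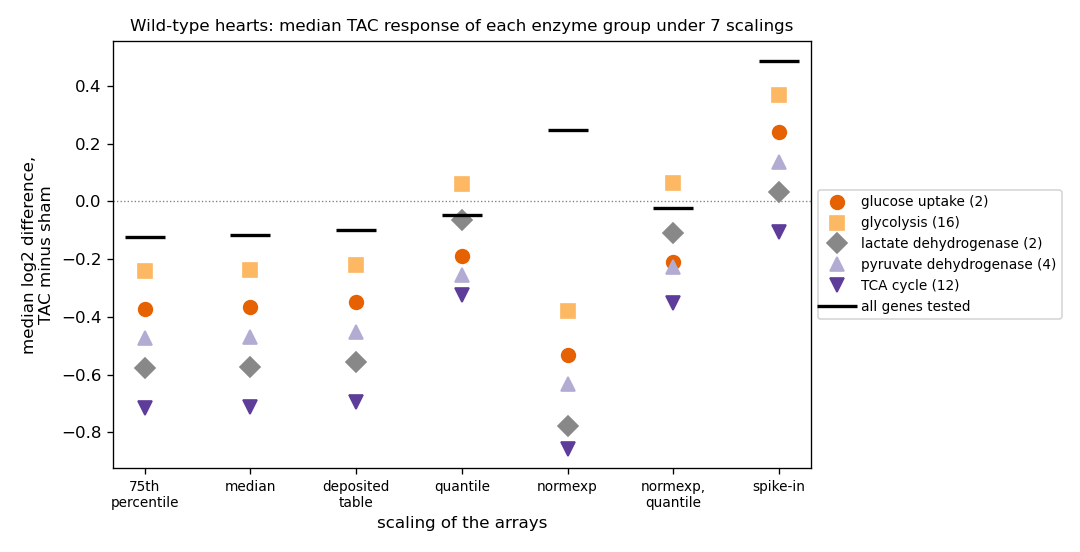
Median log2 difference between TAC and sham in wild-type hearts (vertical axis) for the 5 role groups and for all genes, under 7 ways of scaling the arrays. The TCA cycle median is below the glycolysis median under each, and under spike-in scaling the medians run from -0.11 for the TCA cycle to 0.37 for glycolysis.

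The arrays came on 5 slides, which served as the batch. On the slide that held both wild-type groups (1 TAC and 2 sham arrays) the members' median was -0.47, with 33 of 36 below 0, the TCA cycle at -0.64, pyruvate dehydrogenase at -0.39 and glycolysis at -0.28. With slide as a fixed term in the fit those medians were -0.66, -0.43 and -0.24 for the TCA cycle, pyruvate dehydrogenase and glycolysis, but 2 members were called instead of 24. For TAC in transgenic hearts the slide with 1 array of each gave a members' median of 0.09. For transgenic against wild-type hearts the median was -0.31 after sham (1 and 2 arrays) and 0.30 after TAC (1 and 2 arrays). No slide held all 4 groups, so the interaction has no value within a slide.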

How the data were processed

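Per the file headers, the array files hold spot intensity from Agilent Feature Extraction 10.7.3.1, with background subtracted and spatial trends removed and no scaling between arrays. The authors' value table is in log2 units, scaled per array and centred per probe, and served as an alternative. The submitters' processing notes name RMA, with no role given.

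From 43020 non-control spots, outlier-marked values (2152) were left out, replicate spots averaged and each array's 75th percentile subtracted on the log2 scale. RefSeq's GRCm38.p6 table gave a symbol, by transcript accession, to 26424 of 39429 probes. A probe had to stand well above background on 3 of the 12 arrays or more, and the brightest per gene was used. limma 3.58.1 in R 4.3.3 fitted a mean per group (8 residual and 1.78 prior degrees of freedom), with two-sided tests and Benjamini-Hochberg adjustment over 25321 genes. The number of arrays limits the precision. No 2 arrays held identical values. The steps were tested on simulated data. Arrays of the same number did not deviate together (r from -0.388 to 0.220 over 18 pairs, 4 over 0.1), so numbers were not used as pairs.

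Alternatives were quantile and median scaling, normexp with an offset of 50, the deposited table, other filters and probe rules, blocks, array weights, the compared groups alone and leaving out each array. Scaling to 6 spike-in probes and within-slide values were added after seeing the data. The members and all gene lists were chosen with earlier results of these data known. Named were all members, values by array for up to 4 members of a role with the smallest p per comparison and for pairs, up to 4 genes of each neighbouring list, and Gapdh, Pdk4, Ppp3cb, Ppargc1a, Nppa and Myh7 whatever their test. A few neighbouring genes are not reported here.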

Additional observations from a re-analysis of the deposited data

Results flagged for a closer look

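For 13 members the response to TAC differed between the genotypes by the interaction test, in each case higher in transgenic than in wild-type hearts (log2, relative to the 75th percentile). In glucose uptake this was Slc2a4 (1.03, adjusted p = 0.0237), in glycolysis Pfkm (0.74, adjusted p = 0.0233) and in lactate dehydrogenase Ldhb (0.96, adjusted p = 0.0226). In the TCA cycle the isocitrate dehydrogenase genes were Idh2 (0.92, adjusted p = 0.0276), Idh3a (0.49, adjusted p = 0.0389), Idh3b (1.16, adjusted p = 0.0184) and Idh3g (0.73, adjusted p = 0.0311). The succinyl-CoA synthetase genes were Suclg1 (0.80, adjusted p = 0.0299), Suclg2 (0.90, adjusted p = 0.0426) and Sucla2 (0.76, adjusted p = 0.0457). The others were Ogdh (0.66, adjusted p = 0.0493), Fh1 (0.77, adjusted p = 0.0294) and Mdh1 (0.75, adjusted p = 0.0181). Over all genes tested, 4.22% were called higher in the interaction and 3.07% lower (7.27% and 4.14% of the genes well above background on every array). None of the 13 was below 0 in any of 26 other settings, but Idh3a was at 0.007 with spike-in scaling. The number of settings in which the call held ran from 4 for Ogdh to 19 for Idh3b. The highest adjusted p over those settings was 0.994 for Idh3a and 0.370 for Idh3b.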

How the results depend on the processing

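The number of members called for TAC in wild-type hearts was 24, and 8 under quantile normalization, 13 with normexp, 12 with normexp and quantile normalization, 2 with slide as a fixed block and 4 with spike-in scaling. Each single array left out gave 18 to 26. For the interaction the 13 became 0 under quantile normalization, normexp, the fixed slide block or spike-in scaling, 2 under median scaling or normexp with quantile normalization, 4 with no filter, 24 with genes well above background on all 12 arrays, and 0 to 15 without 1 array. For transgenic against wild type after TAC the 2 became 0 under quantile normalization, median scaling, normexp, no filter, the fixed slide block, spike-in scaling or the compared groups alone, 1 with slide as a random block, 11 with array weights, 12 with genes well above background on all 12 arrays and 0 to 3 without 1 array. After sham the 1 became 0 under quantile normalization, normexp, normexp with quantile normalization, no filter, the fixed slide block, array weights, spike-in scaling or the compared groups alone, 13 with genes well above background on all 12 arrays and 0 to 1 without 1 array. For TAC in transgenic hearts it stayed 0 throughout. The replicate block, on numbers that did not pair the arrays, gave 24 for TAC in wild-type hearts, 6 for the interaction and 0 for the others. The causes were not tested, other than the change in genes tested or arrays used that a setting brings by itself.

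Over all genes, TAC in wild-type hearts called 552 to 10177 genes across settings (5438 in the reported fit), the interaction 0 to 3295 (1847), transgenic against wild type 22 to 3375 after TAC (1052) and 37 to 1085 after sham (355). The counts over the whole table thus moved with the settings as well, and a changed count of members is not read as a result about the members. Leaving out 1 array gave 2837 to 6226, 151 to 2338, 180 to 1373 and 84 to 621 in that order, and 0 to 3 for TAC in transgenic hearts.

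Among named genes that had passed, signs turned in wild-type hearts after TAC under quantile normalization for Gapdh (0.0442), Tpi1 (0.0538) and Aldoa (0.0654). With normexp and quantile normalization they turned for Tpi1 (0.0187), Mdh2 (0.0021) and Aldoa (0.15). With spike-in scaling they turned for Ogdh (0.0094), Dld (0.16), Gapdh (0.0172), Ppp3cb (0.31), Tpi1 (0.27), Mpc1 (0.0360), Mdh2 (8.0e-05), Pdhb (0.15), Pkm (0.15), Pdha1 (0.12), Idh3a (0.14) and Aldoa (0.0502). The role medians that turned on that scale in the same comparison were pyruvate dehydrogenase (0.14), lactate dehydrogenase (0.0331), uptake (0.24) and glycolysis (0.37). The glycolysis median turned under quantile normalization too. In the interaction the spike-in medians of uptake (-0.28), glycolysis (-0.28) and pyruvate dehydrogenase (-0.013) turned. For transgenic against wild type after sham those of glycolysis (0.17), pyruvate dehydrogenase (0.12), the TCA cycle (0.03) and uptake (0.30) turned. Of the other values for named genes 7625 kept their side of the threshold, 766 no longer passed and 142 newly passed. The 7625 include values that had not passed and changed sign. Ogdh for transgenic against wild type after sham, for example, was at -0.31, and at 0.07 with spike-in scaling. No isoform ratio whose groups did not overlap changed sign. Signals near background limit Aldoc, and slide and group are partly confounded.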
